A study of Mus musculus with 12 samples.

Results

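The effect of 3′-sialyllactose (3′SL) on macrophages responding to lipopolysaccharide (LPS) was described by comparing 3 libraries of cells given LPS + 3′SL with 3 libraries of cells given LPS alone, which are 6 of the 12 RNA-Seq libraries of the study. They were chosen by the intervention in the labels, and the 43626 genes in the files were all considered. The cells were mouse bone marrow–derived macrophages (BMDMs), which grow out of marrow in culture. LPS was given at 10 ng/mL and 3′SL at 100 μg/mL for 6 hours, while the other 6 libraries came from cells given PBS or 3′SL alone. The labels call the sugar by the abbreviation HMO and list injections of mice as the treatment, so doses and time were taken from the study's text. They state no strain, sex, or age of the donor mice, and they do not say whether libraries came from separate animals or cultures. A heatmap legend of the study names independent biological duplicates, and other panels of that figure give n = 3. It does not link these to single libraries. The p-values therefore measure the spread between these libraries, and how much of it is technical is not known. The cells were not sorted, and in bulk RNA fewer cells of a type cannot be told apart from less RNA per cell.

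LPS is an outer membrane component of gram-negative bacteria that is recognized by Toll-like receptor 4. Through NF-κB, MAP kinases, and interferon regulatory factors it induces cytokines, chemokines, antimicrobial enzymes, and a set of inhibitors that limit the response. It also reshapes lipid metabolism and protein folding in the endoplasmic reticulum (ER), where secreted proteins are made. 3′SL is a sugar of milk in which sialic acid is attached to lactose.

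The 6 libraries held from 21947552 to 25789130 reads assigned to genes, and expression is shown in CPM, which are counts divided by the library size after its scaling with edgeR's TMM factors. The running numbers of the libraries form 3 runs of 4 consecutive numbers, called library runs 1, 2, and 3 here, and each run holds 1 library of every group. The labels do not describe these runs. After the group means were removed, the LPS and the LPS + 3′SL library of the same run deviated together, with correlations across genes of 0.744, 0.581, and 0.657. Libraries of different runs had correlations of −0.141 to −0.501. Removing the mean of 3 libraries makes these negative on average once those within runs are positive, so they add no separate evidence. Values of runs 1, 2, and 3 are always listed in that order. Macrophage markers, among them Adgre1 and Csf1r, summed to between 29600 and 36740 CPM in all 6 libraries. Stromal markers differed mainly by run, with 1204, 84.3, and 202 CPM with LPS and 1199, 61, and 167 CPM with LPS + 3′SL. Neutrophil markers gave 152, 279, and 598 CPM with LPS and 144, 257, and 577 CPM with LPS + 3′SL. The 10 T and NK cell markers summed to between 1.52 and 3.87 CPM, with 4 of them (Cd3e, Cd3d, Cd3g, and Gzma) at 0 in all 6 libraries. The 6 adipocyte markers summed to at most 0.268 CPM, with 3 (Adipoq, Plin1, and Lep) at 0.

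With the library run in the model, the genes that rose with LPS + 3′SL included 13 of 21 enzymes of cholesterol synthesis and 9 of 23 ER chaperones and foldases. Those that fell included 6 of 17 interleukins and colony-stimulating factors, 3 of 22 chemokines, and 3 of 17 NF-κB subunits and feedback inhibitors. These calls depended on whether the run was part of the model, and the main test of the design was the one without it. Of 14308 genes tested, 0 (0%) passed an adjusted p of 0.05 together with 1.5-fold in edgeR's quasi-likelihood test without the run, where the lowest adjusted p was 0.0835 and 995 genes had an unadjusted p under 0.05. DESeq2 without the run called 113 genes (0.79%), 47 higher and 66 lower. With the library run as a block, edgeR called 207 genes (1.45%), of which 98 were higher (0.685%) and 109 were lower (0.762%) with LPS + 3′SL. DESeq2 without the run also called 44 of these 98 genes and 62 of these 109 genes. An exact permutation test of 3 against 3 libraries cannot give a 2-sided p below 0.1, so single levels were not tested in that way. In what follows, log2 fold changes of single genes with their SE and adjusted p, and the words rose and fell, refer to edgeR's test with the block, and values after rose by and fell by are on the log2 scale. Medians over a list of genes are from the fit without it and were not tested.

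All 98 called higher genes had a positive change within each run, as compared with 3043 of all genes tested (21.3%). All 109 called lower genes had a negative change within each run, as compared with 3681 of all genes tested (25.7%). Since the calls were made on the same libraries, these shares describe the calls. In 84 of the 98 and 86 of the 109 genes, the 3 libraries with LPS + 3′SL did not overlap the 3 with LPS, as compared with 6.24% of all genes tested that were higher and 6.51% that were lower without overlap. The median fold was 1.69 for the called higher genes and 1.79 for the called lower genes, and 14 and 42 of them, respectively, changed at least 2-fold. The called lower genes had a median level of 61 CPM, the called higher genes 21.0 CPM, and all genes tested 12.7 CPM. Scaling by total counts moved the median of all genes by 0.09 on the log2 scale and changed the split of the calls with the block from 47.3% higher to 62.8% higher, with 137 genes higher and 81 lower. Of the original calls, 95 of the 98 higher and 79 of the 109 lower genes were called under that scaling too.

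A run that takes no part in choosing genes gives a second look at their direction. The runs may not be independent, since the labels do not state separate animals or cultures, and scaling and gene filter used all 12 libraries. With run 3 left out, the block fit over runs 1 and 2 called 161 genes higher and 210 lower. In run 3, 150 of the 161 genes (93.2%) were higher and 205 of the 210 genes (97.6%) were lower with LPS + 3′SL, whereas 47.9% of all genes were higher and 51.7% lower in that run. The changes in run 3 were smaller than those in the fit that chose the genes, with a median log2 change of 0.62 against 0.78 for higher and −0.64 against −0.80 for lower genes. With run 1 or run 2 left out, 1 and 0 genes passed both thresholds. At an unadjusted p under 0.05 and 1.5-fold, 234 of 281 higher genes (83.3%) and 237 of 270 lower genes (87.8%) had the same direction in run 1 when it was the run left out. For run 2, the counts were 220 of 257 (85.6%) and 219 of 246 (89.0%), and for run 3 they were 284 of 361 (78.7%) and 316 of 350 (90.3%).

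**Figure D1:**
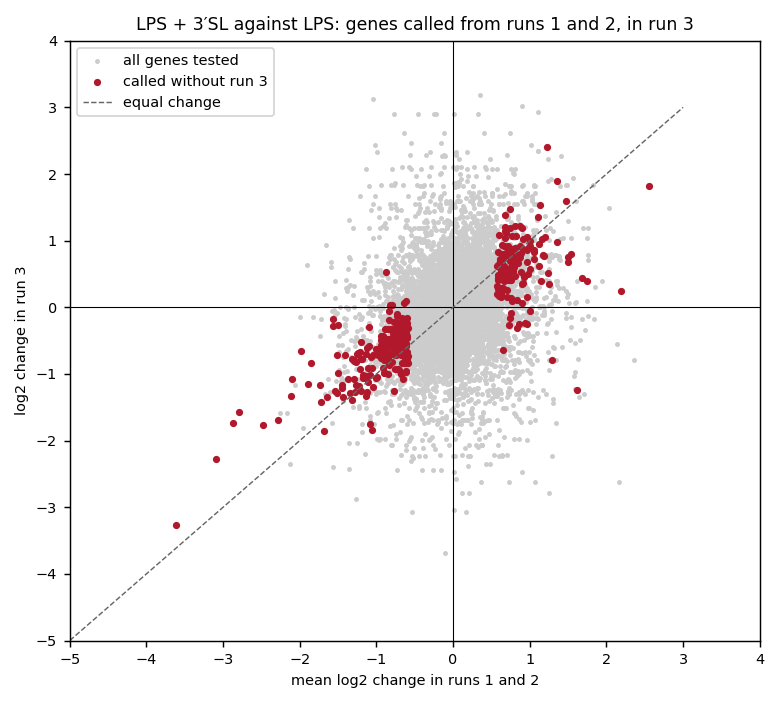
Each point is a gene, with the mean log2 change (LPS + 3′SL over LPS) of library runs 1 and 2 on the x axis and the log2 change in run 3 on the y axis. Gray points are genes tested and colored points are the 371 genes called without run 3, of which 150 of the 161 higher and 205 of the 210 lower genes lie on the same side of 0 in run 3.

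Sorted by function, 15 of 62 lists had a median above 0 in every run, 34 had a median below 0 in every run, and 13 had medians of both signs. The lists furthest above 0 were cholesterol synthesis, fatty acid synthesis, and ER chaperones, and those furthest below 0 were interleukins, costimulatory molecules, acute phase proteins, chemokines, and NF-κB feedback inhibitors. Of the called genes, 40 of the 98 higher and 45 of the 109 lower ones belonged to at least 1 list, as compared with 1247 of all 14308 genes tested. The lists were chosen with earlier results of these data known, so these counts are a description. The median of all genes tested was −0.01 in each run.

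**Figure D2:**
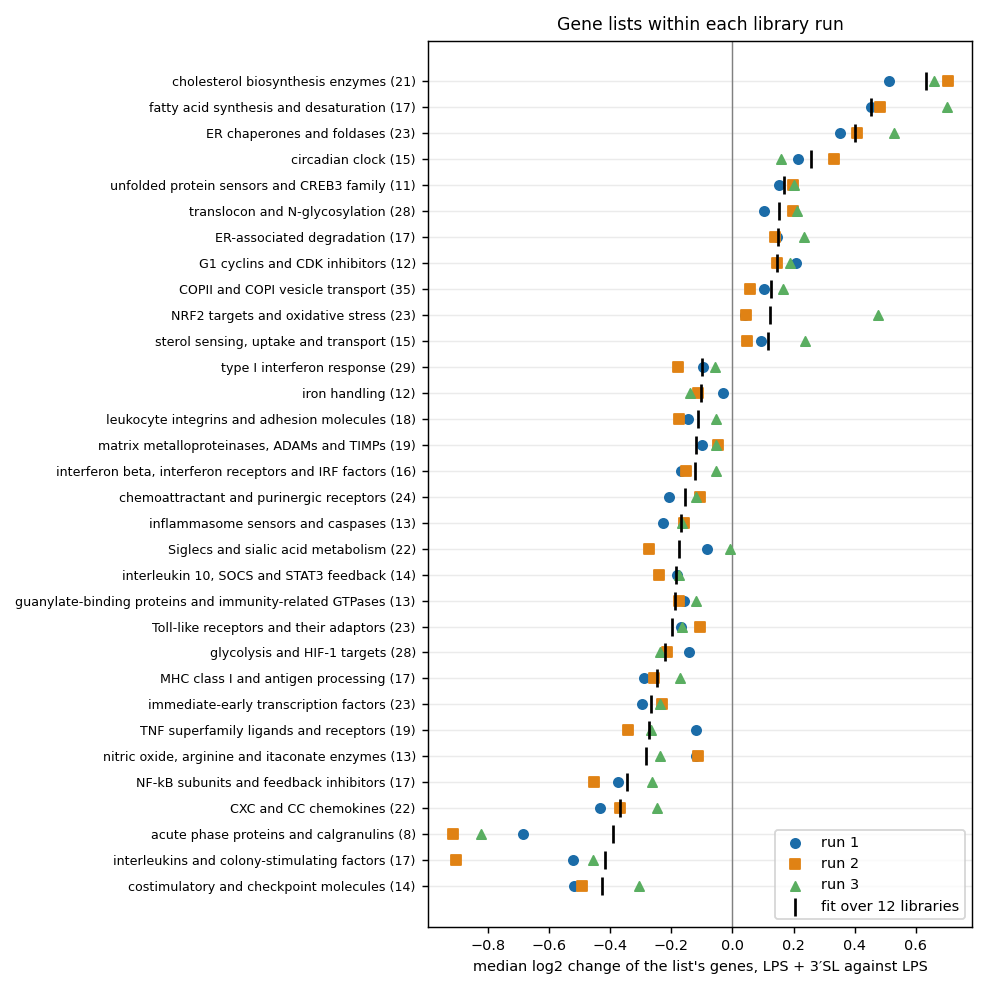
Median log2 fold change (LPS + 3′SL over LPS) of 32 gene lists whose median was at least 0.1 from 0 and had the same sign in every library run, 11 above 0 and 21 below 0, with 1 marker per run, a bar for the median of the fit over 12 libraries without the block, and the number of genes in parentheses. Cholesterol synthesis had the highest median of the fit (0.63) and costimulatory molecules the lowest (−0.43). Within each run, acute phase proteins were lowest, at −0.69, −0.91, and −0.82. All 32 medians of the fit kept their sign when DESeq2's size factors or total counts replaced TMM factors.

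Genes for protein folding in the ER were among those that rose, with 9 of 23 chaperones and foldases called higher and 0 called lower. Chaperones bind unfolded chains, foldases form and rearrange their disulfide bonds, and sensors in the ER membrane raise both when unfolded proteins accumulate, in part through the transcription factor ATF6 and the ER stress response element (ERSE). Promoters of 3 genes that rose and hold an ERSE match are shown here, as 250 bases before to 50 after the start of the RefSeq gene on GRCm38.p6, with the match in capitals. The search was for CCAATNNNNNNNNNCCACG on both strands.
Hspa5 (chr2:34771840-34772139, plus strand): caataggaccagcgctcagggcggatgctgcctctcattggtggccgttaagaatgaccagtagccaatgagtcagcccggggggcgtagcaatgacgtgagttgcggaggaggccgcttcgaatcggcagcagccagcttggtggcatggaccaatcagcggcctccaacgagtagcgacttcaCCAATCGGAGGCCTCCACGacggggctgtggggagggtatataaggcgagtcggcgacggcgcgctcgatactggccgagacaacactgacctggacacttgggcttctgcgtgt
Creld2 (chr15:88819396-88819695, plus strand): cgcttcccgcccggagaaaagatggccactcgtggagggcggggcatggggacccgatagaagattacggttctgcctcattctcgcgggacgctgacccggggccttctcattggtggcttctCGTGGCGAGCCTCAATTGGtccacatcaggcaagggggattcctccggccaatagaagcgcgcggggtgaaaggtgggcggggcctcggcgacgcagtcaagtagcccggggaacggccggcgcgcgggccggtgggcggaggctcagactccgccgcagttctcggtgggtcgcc
Dnajc3 (chr14:118937682-118937981, plus strand): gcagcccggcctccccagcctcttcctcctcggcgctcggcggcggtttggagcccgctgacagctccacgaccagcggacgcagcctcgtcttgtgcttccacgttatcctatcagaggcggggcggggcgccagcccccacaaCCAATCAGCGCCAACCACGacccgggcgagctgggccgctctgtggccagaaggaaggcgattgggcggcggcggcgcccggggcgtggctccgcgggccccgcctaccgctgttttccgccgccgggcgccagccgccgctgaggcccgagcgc

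Counted from the start of the RefSeq gene, the match began at position −65 in Hspa5, at −126 in Creld2, where it lies on the opposite strand, and at −105 in Dnajc3. The interval given for Hspa5 below is from another annotation and starts earlier, so the match, at 34772025 to 34772043, lies inside it. Among 10089 genes tested with a promoter in the RefSeq table, 16 (0.159%) held a match. They included 4 of 74 called higher genes (5.41%), namely Hspa5, Creld2, Dnajc3, and Alg12, and 0 of 85 called lower genes. Alg12, a mannosyltransferase of N-glycan assembly, is transcribed away from Creld2, and the same bases give the match in both windows, so these are 1 site. Dnajc3 and Alg12 were named for this match after their values had been seen. Of 19 ER chaperones and foldases with a promoter, 7 (36.8%) held the letters, which are also found in the promoters of Calr, Canx, Hsp90b1, and Pdia6.

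Hspa5, which encodes the main ER chaperone BiP (chromosome 2, 34771970 to 34777547), was at 1816, 1868, and 2600.3 CPM with LPS and 2605, 2895, and 4002 CPM with LPS + 3′SL. Within each run the LPS + 3′SL library was the higher one, but run 3 was highest in both groups, and the highest library with LPS was just below the lowest with LPS + 3′SL (log2 fold change 0.59 ± 0.08 SE, adjusted p = 0.00364). Creld2, an ER protein induced by unfolded proteins (chromosome 15, 88819646 to 88826683), was at 29.7, 31.2, and 38.1 CPM with LPS and 55.1, 63.9, and 79.2 CPM with LPS + 3′SL, without overlap (log2 fold change 0.99 ± 0.11 SE, adjusted p = 0.00148). Pdia4, a foldase (chromosome 6, 47796141 to 47813430), was at 113, 105, and 103 CPM with LPS and 208, 191, and 240.1 CPM with LPS + 3′SL, and every library with LPS + 3′SL lay above every library with LPS (log2 fold change 0.98 ± 0.10 SE, adjusted p = 0.000833). Manf, a secreted protein of the ER stress response, rose by 0.73 on the log2 scale, although its exons overlap those of Dcaf1 and Rbm15b and the sources do not say whether reads were counted by strand. Dnajc3, a cochaperone of BiP, rose by 0.62 and Alg12 by 0.60. Over the list, 21 of 23 chaperones and foldases were higher, 9 rose, and 19 were higher in every run, with medians of 0.35, 0.41, and 0.53 within the runs. By comparison, 0.685% of all genes tested rose and 21.3% were higher in every run.

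Functions next to folding had fewer called genes. Creb3l2, a membrane-bound transcription factor of the secretory pathway (chromosome 6, 37327255 to 37442146), rose from 15.6, 11.6, and 19.9 CPM to 30.8, 28.2, and 38.8 CPM (log2 fold change 1.07 ± 0.10 SE, adjusted p = 0.000833), as the 1 called gene among 11 sensors of unfolded protein and CREB3 factors. The sensors Atf6 (log2 fold change 0.39, adjusted p = 0.0147) and Eif2ak3, which encodes PERK (0.58, adjusted p = 0.04), passed the adjusted p of edgeR's test with the block but not the fold. The same held for Syvn1 (0.52) and Sel1l (0.36), the ubiquitin ligase and its partner in ER-associated degradation, a list of 17 genes with 12 higher and 5 lower and 0 called. Exons of Syvn1 overlap Mrpl49 on the other strand. Of 28 genes for the translocon and N-glycosylation, 25 were higher and 0 were called, with Spcs2 (0.40), Ostc (0.41), and Tram1 (0.45) past the adjusted p. Among 35 COPII and COPI genes, 29 were higher, and Sec24d, which selects cargo for COPII vesicles, rose by 0.80. ATF4 targets, which respond to amino acid shortage and to PERK, had a median of 0.04 with 17 higher and 12 lower, and Sesn2 rose by 0.61.

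Many enzymes of cholesterol synthesis and some of fatty acid synthesis rose as well. These genes are controlled by SREBP transcription factors, which are released when membrane sterol is low. All 21 cholesterol synthesis enzymes tested were higher with LPS + 3′SL and were higher in every run, and 13 rose, while DESeq2 without the run called 8. The shares of all genes tested were 21.3% higher in every run and 0.685% that rose. Fdps, farnesyl diphosphate synthase (chromosome 3, 89093588 to 89101959), was at 60.1, 54.9, and 39.5 CPM with LPS and 97.7, 99, and 83 CPM with LPS + 3′SL, with no overlap (log2 fold change 0.87 ± 0.11 SE, adjusted p = 0.00212). Of its words of 50 nucleotides, 26.2% also occur in other genes, most of them numbered gene models. Lss, which closes the sterol ring to lanosterol (chromosome 10, 76531588 to 76557138), was at 27.1, 23, and 13.7 CPM with LPS and 49.4, 50.9, and 27.4 CPM with LPS + 3′SL. Its groups touched without overlapping, since the lowest value with LPS + 3′SL, in run 3, was next to the highest with LPS, in run 1 (log2 fold change 1.0 ± 0.14 SE, adjusted p = 0.00487). Further along the pathway, Nsdhl rose by 0.69, Msmo1 by 0.64, Mvd by 0.86, and Dhcr7, which catalyzes the final step, by 0.89 on the log2 scale.

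In fatty acid synthesis, 16 of 17 genes were higher and 3 rose, with medians of 0.45, 0.48, and 0.70 within the runs. Elovl6, an elongase of long-chain fatty acids (chromosome 3, 129532355 to 129638495), was at 1.95, 1.31, and 0.798 CPM with LPS and 5.34, 4.32, and 1.45 CPM with LPS + 3′SL. The groups overlapped because run 3 was low in both (log2 fold change 1.41 ± 0.29 SE, adjusted p = 0.0313). Fasn, fatty acid synthase, rose by 0.86 with overlapping groups, and Acaca, which makes its substrate, had a log2 fold change of 0.52 that did not reach 1.5-fold. Acsl3, which activates fatty acids for lipid droplets, rose from 9.08, 5.42, and 5.71 CPM to 14.9, 14.3, and 10.2 CPM, and part of its exons is shared with Utp14b on the same strand. Another activating enzyme moved the other way, and Acsl1 fell from 475, 462, and 555 CPM to 259, 248, and 325 CPM (log2 fold change −0.84 ± 0.10 SE, adjusted p = 0.0022). Fatty acid oxidation (9 higher and 10 lower, median −0.01) and fatty acid binding (6 higher and 6 lower, median −0.01) showed no common direction, and their medians were positive under total count scaling. Fabp3, a fatty acid binding protein, fell by 1.46 on the log2 scale, although its exons overlap Zcchc17 on the other strand, which had 509% of its counts.

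Sterol handling outside synthesis was less uniform. Of 15 genes for sterol sensing, uptake, and transport, 10 were higher, 5 were lower, and 2 rose. These were Stard4, a carrier of cholesterol between membranes (log2 fold change 0.82 ± 0.12 SE, adjusted p = 0.00622), and Lrp8, a receptor of the LDL receptor family (log2 fold change 1.57 ± 0.36 SE, adjusted p = 0.0475). Lrp8 was at 4.34, 4.94, and 3.68 CPM with LPS and 10.8, 11, and 19.9 CPM with LPS + 3′SL, so that run 3 had the highest level with LPS + 3′SL and the lowest with LPS. Insig1, which holds SREBP in the ER, had a log2 fold change of 0.52 that passed the adjusted p (0.00677 in edgeR's test with the block) without reaching 1.5-fold. Among 15 LXR and cholesterol efflux genes the median was 0.04, and Arl4c, a small GTPase, was the 1 that rose (0.89). A sterol response element, searched as TCACNCCAC on both strands of the same promoter windows, was found for 3 of 74 called higher genes (4.05%), 4 of 85 called lower genes (4.71%), and 1.37% of all genes, and among 16 cholesterol synthesis genes only in Hmgcs1, which rose by 0.64 and was named for this match.

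**Figure D3:**
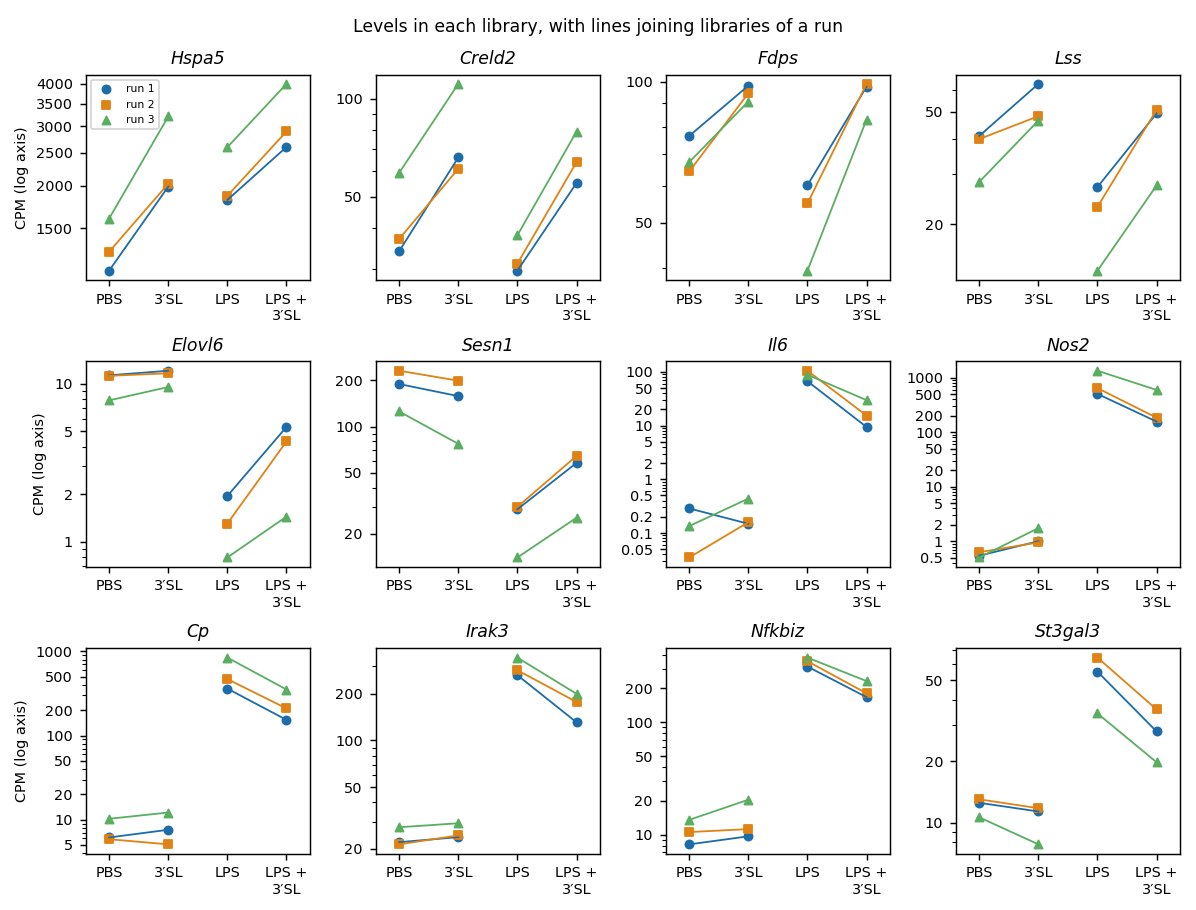
Levels in CPM (log axis) of 12 genes in all 4 groups, 1 point per library with lines that join the libraries of the same run. Hspa5, Creld2, Fdps, Lss, Elovl6, and Sesn1 rose and Il6, Nos2, Cp, Irak3, Nfkbiz, and St3gal3 fell between LPS and LPS + 3′SL in edgeR's test with the block, with the same direction in each run.

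Several genes that rose belong to growth control, iron export, and lysosome biogenesis. Slc40a1, the iron exporter ferroportin (chromosome 1, 45908068 to 45926523), was at 63.3, 71.1, and 76 CPM with LPS and 131, 165, and 222 CPM with LPS + 3′SL, with the lowest adjusted p of all genes (log2 fold change 1.26 ± 0.11 SE, adjusted p = 0.000782). Its level was 465 to 678 CPM with PBS, above every library with LPS, and the 12 iron genes as a list had a median of −0.10. Sesn1, a stress protein that restrains mTORC1 (chromosome 10, 41809935 to 41908424), was at 28.8, 29.9, and 14 CPM with LPS and 57.9, 64.3, and 25.4 CPM with LPS + 3′SL, and the groups overlapped because run 3 was low in both (log2 fold change 1.0 ± 0.12 SE, adjusted p = 0.00148). Tfeb, which drives lysosome genes, rose by 0.60 and Atp6v0a1, a membrane subunit of the proton pump that acidifies lysosomes, by 0.73. The lysosome list itself had a median of −0.05 and the V-ATPase list one of −0.04, and both were above 0 under total count scaling. Ccnd1, cyclin D1, rose by 0.67 among 12 G1 cyclins and CDK inhibitors, of which 10 were higher. Clock genes leaned the same way, 13 of 15 higher with 0 called, and Tef passed the adjusted p with 0.52. The protease Adam8 rose by 0.64, the inflammasome sensor Nlrp1b by 0.76, the receptor Cd300lb by 0.71, and Pfkfb4, a regulator of glycolysis, by 0.77.

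Secreted mediators of inflammation were among the genes that fell. Macrophages release chemokines to recruit leukocytes, interleukins and colony-stimulating factors to direct them, and acute phase proteins that bind iron, hemoglobin, or bacterial products. Of 17 interleukins and colony-stimulating factors, 16 were lower and 6 fell, with medians of −0.52, −0.90, and −0.46 within the runs. Of 22 chemokines, 18 were lower, 3 fell, and 14 were lower in every run. For all genes tested, 0.762% fell and 25.7% were lower in every run. All 8 acute phase genes tested were lower and 3 fell. The TNF superfamily was split into 7 higher and 12 lower, with 3 called lower.

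Il6, a cytokine of the acute phase response (chromosome 5, 30013114 to 30019981), was at 66.9, 105, and 88.4 CPM with LPS and 9.41, 15.3, and 29.7 CPM with LPS + 3′SL, which is 5.19-fold lower in edgeR's test with the block (adjusted p = 0.00125). All libraries with LPS + 3′SL were below all with LPS and far above PBS (0.0351 to 0.287 CPM). Il1a, an alarmin cytokine, was at 1088, 1270.2, and 1759 CPM with LPS and 298, 335, and 793 CPM with LPS + 3′SL (log2 fold change −1.65 ± 0.21 SE, adjusted p = 0.00265). Csf3, which drives granulocyte production, had low levels of 5.08, 5.08, and 9.88 CPM with LPS and 1.26, 0.551, and 2.84 CPM with LPS + 3′SL and fell by 2.25. The fall was smaller in run 3 for Il6 (log2 changes −2.82, −2.77, and −1.57 in the 3 runs) and for Il1a (−1.87, −1.92, and −1.15). Il27, which encodes a subunit of a heterodimeric cytokine, fell by 1.0, although its exons overlap Apobr on the other strand, which had 806% of its counts.

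The chemokines Ccl3 (chromosome 11, 83647844 to 83649355) and Cxcl3 (chromosome 5, 90786103 to 90789600), which attract monocytes and neutrophils, respectively, had log2 fold changes of −1.14 and −2.58 and were both called lower. Ccl3 was at 1484, 1927, and 1916 CPM with LPS and 597, 769.9, and 1116 CPM with LPS + 3′SL. Ccl5 fell by 0.89 but its groups overlapped, because run 3 was high in both, and Ccl9 had a log2 fold change of −0.45 that did not reach 1.5-fold. Cp, the ferroxidase ceruloplasmin (chromosome 3, 19957054 to 20009145), was at 362, 469, and 845 CPM with LPS and 154, 210.2, and 353 CPM with LPS + 3′SL (log2 fold change −1.22 ± 0.15 SE, adjusted p = 0.00192), and its exons overlap Hps3 on the other strand, which had 38.6% of its counts. Saa3, a serum amyloid A protein, and Hp, the hemoglobin-binding haptoglobin, fell by 1.73 and 1.21. Tnfsf15, a ligand of the TNF superfamily, fell from 16, 19.7, and 18.1 CPM to 3.15, 4.09, and 5.57 CPM, and the receptors Fas and Tnfrsf1b fell by 0.65 and 0.62.

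Single enzymes and vascular factors made by activated macrophages also fell, while most members of their lists were not called. Nos2, the inducible nitric oxide synthase (chromosome 11, 78920787 to 78960254), was at 502, 642, and 1336 CPM with LPS and 156, 184, and 594 CPM with LPS + 3′SL. Its groups overlapped because run 3 with LPS + 3′SL exceeded run 1 with LPS, and within each run it was lower (log2 fold change −1.53 ± 0.19 SE, adjusted p = 0.00248). Slc7a2, which imports the arginine used by this enzyme, fell by 1.10, while the 13 genes of nitric oxide, arginine, and itaconate metabolism were split into 6 higher and 7 lower. Ptges, prostaglandin E synthase, fell by 0.77 as the 1 called gene among 15 of the prostaglandin and leukotriene list. F10, coagulation factor X (chromosome 8, 13037308 to 13056676), was at 70.2, 102, and 111 CPM with LPS and 19.6, 33.2, and 41.5 CPM with LPS + 3′SL (log2 fold change −1.61 ± 0.15 SE, adjusted p = 0.000833). Edn1, the vasoconstrictor endothelin 1, was 10.9-fold lower at 1.55, 3.12, and 6.75 CPM as compared with 23.7, 32.9, and 65.6 CPM with LPS. It was the 1 of 19 growth factors that fell.

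Inhibitors that NF-κB itself induces, and that limit its activity, were lower along with the mediators. Promoters of a cytokine and of an inhibitor that fell are shown, in windows of the same kind as above with κB matches in capitals.
Il6 (chr5:30012864-30013163, plus strand): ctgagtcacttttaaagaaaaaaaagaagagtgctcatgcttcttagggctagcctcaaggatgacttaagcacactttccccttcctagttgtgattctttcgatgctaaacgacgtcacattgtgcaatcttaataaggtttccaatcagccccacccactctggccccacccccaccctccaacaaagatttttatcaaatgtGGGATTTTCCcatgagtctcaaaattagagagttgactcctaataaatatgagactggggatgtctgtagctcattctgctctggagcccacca
Tnfaip3 (chr10:19015361-19015660, minus strand): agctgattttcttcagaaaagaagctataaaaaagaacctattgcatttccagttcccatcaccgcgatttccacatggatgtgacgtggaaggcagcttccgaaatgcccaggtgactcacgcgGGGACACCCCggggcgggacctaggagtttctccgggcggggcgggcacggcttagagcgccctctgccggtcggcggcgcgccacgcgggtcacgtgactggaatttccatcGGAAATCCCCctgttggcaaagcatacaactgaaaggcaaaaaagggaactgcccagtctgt

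The match in Il6 began at position −44, and Tnfaip3 held 2 stretches, the first of them at −125. A κB match was found on either strand in 8 of 74 called higher genes (10.8%), 15 of 85 called lower genes (17.6%), and 12.3% of all genes. It was found in 10 of 14 NF-κB subunits and feedback inhibitors (71.4%), 6 of 12 interleukins, and 5 of 15 chemokines with a promoter. Such a match is a description of these letters and does not show binding.

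Of 17 NF-κB subunits and feedback inhibitors, 15 were lower in every run and 3 fell, as compared with 25.7% and 0.762% of all genes tested. Irak3, a kinase-like brake on Toll-like receptor signaling (chromosome 10, 120141648 to 120202130), was at 263, 284, and 342 CPM with LPS and 131, 177, and 199.7 CPM with LPS + 3′SL (log2 fold change −0.82 ± 0.09 SE, adjusted p = 0.00125), and its exons overlap Tmbim4 on the other strand, which had 52.6% of its counts. Nfkbiz, which encodes IκBζ and is needed for a set of late cytokine genes (chromosome 16, 55811375 to 55838899), was at 313, 349, and 376 CPM with LPS and 167, 181, and 232 CPM with LPS + 3′SL (log2 fold change −0.86 ± 0.13 SE, adjusted p = 0.00677). Tnfaip3, the ubiquitin-editing enzyme A20, fell by 0.90, and the subunit Rel had a log2 fold change of −0.46 below the 1.5-fold limit. Zc3h12a, a nuclease that degrades cytokine mRNA, fell by 0.78 and Dusp16, a phosphatase of JNK and p38, by 0.75, but the lists on mRNA decay and on dual-specificity phosphatases had medians of −0.07 and −0.09, both above 0 under total count scaling. The host transcript of miR-155, Mir155hg, fell by 0.69. Among 14 genes of interleukin 10, SOCS, and STAT3 feedback, 10 were lower and 0 were called.

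Immediate-early transcription factors, which are induced without new protein synthesis, were split into 7 higher and 16 lower. Of the 23, 4 fell, as compared with 0.762% of all genes tested. Egr1 was at 18.8, 20, and 19.6 CPM with LPS and 8.54, 7.49, and 8.73 CPM with LPS + 3′SL and thus had little spread within either group (log2 fold change −1.25 ± 0.19 SE, adjusted p = 0.00677). Ier2 fell by 0.74, Klf6 by 0.61, and Fosl2, an AP-1 subunit, by 0.64, each with groups that overlapped. Btg2, which slows proliferation, fell by 0.59, and Mdm2, the ligase for p53, had a log2 fold change of −0.48 below 1.5-fold. Bcl2a1a, Bcl2a1b, and Bcl2a1d, antiapoptotic paralogs of the BCL2 family, fell by 0.78, 0.63, and 0.84. They share 69% to 79.5% of their words of 50 nucleotides with each other or with related genes, so how reads were divided among them is uncertain, and the other 11 BCL2 genes included 0 called.

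Some receptors by which macrophages sense peptides, nucleosides, and T cells also fell. Among 24 chemoattractant and purinergic receptors, 9 were higher and 15 lower, and 3 fell, whereas 0.762% of all genes tested fell. Fpr1, the receptor for formylated bacterial peptides (chromosome 17, 17876471 to 17883940), was at 146, 162, and 216 CPM with LPS and 79, 98.9, and 133 CPM with LPS + 3′SL, with the groups apart (log2 fold change −0.77 ± 0.07 SE, adjusted p = 0.000833). Ccrl2, which presents chemerin, fell by 1.05 and Adora2a, an adenosine receptor that dampens inflammation, by 1.45. The related Adora2b had a log2 fold change of −0.53, below 1.5-fold. Of 14 costimulatory and checkpoint molecules, 11 were lower and 3 fell, with medians of −0.52, −0.49, and −0.31 within the runs. Slamf7, a receptor of the SLAM family (chromosome 1, 171632403 to 171653035), was at 852, 985, and 1234 CPM with LPS and 416, 559, and 729.8 CPM with LPS + 3′SL (log2 fold change −0.87 ± 0.10 SE, adjusted p = 0.00144). Slamf1 and Cd200 fell by 1.42 and 1.39, and Cd86, which activates T cells through CD28, had a log2 fold change of −0.41.

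Since 3′SL carries sialic acid, genes for its transfer and recognition were examined. Of 22 Siglecs and genes of sialic acid metabolism, 9 were higher and 13 lower, and 2 sialyltransferases fell, the genes St3gal3 and St8sia4. St3gal3, which makes α2,3 linkages of the kind in 3′SL (chromosome 4, 117932154 to 118134914), was at 55, 64.4, and 34.3 CPM with LPS and 28, 35.9, and 19.8 CPM with LPS + 3′SL. The groups overlapped because run 3 was lowest in both, and each run had the lower level with LPS + 3′SL (log2 fold change −0.87 ± 0.12 SE, adjusted p = 0.00364). St8sia4, which builds polysialic acid (chromosome 1, 95587682 to 95667571), was at 64.5, 81.3, and 69.4 CPM with LPS and 37.4, 39.5, and 36.9 CPM with LPS + 3′SL, without overlap (log2 fold change −0.91 ± 0.16 SE, adjusted p = 0.0143). Cmas, which activates sialic acid, had a log2 fold change of 0.42 that did not reach 1.5-fold, and none of the Siglecs tested was called.

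Other lists leaned to lower levels with few or no called genes. All 17 genes for MHC class I and antigen processing were lower, and lower in every run, as compared with 25.7% of all genes tested. Their medians were −0.29, −0.26, and −0.17, but 0 were called. The nearest were B2m, the invariant chain (log2 fold change −0.31, adjusted p = 0.0562 in edgeR's test with the block), H2-Q7 (−0.69, adjusted p = 0.0735), and the trimming peptidase Erap1 (−0.26, adjusted p = 0.0766). H2-Q7 shares 26.4% of its words with other genes, and exons of Erap1 overlap Cast on the other strand. MHC class II genes, in contrast, were split into 8 higher and 3 lower, with a median of 0.03, but the difference between the lists was not tested. Type I interferon response genes were lower in 25 of 29 cases with a median of −0.10, guanylate-binding proteins and immunity-related GTPases in 12 of 13 with −0.19, and Toll-like receptors and adaptors in 16 of 23 with −0.20. Of 28 glycolysis and HIF-1 genes, 23 were lower, and Ldha, lactate dehydrogenase A, had a log2 fold change of −0.34 past the adjusted p, while Pfkfb4 was the 1 called gene and rose. Among 18 integrins and adhesion molecules, 12 were lower with 0 called, and Itga4 had −0.36.

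Housekeeping functions stayed close to the median of all genes. The respiratory chain (70 genes, median −0.03), the TCA cycle (20 genes, 0.00), ribosomal proteins (76 genes, −0.04), and the proteasome (31 genes, −0.04) had 0 called genes, and their signs changed with the scaling. Lysosomal genes had 1 called higher and 1 called lower, the latter being Acp5, an acid phosphatase, which fell by 0.72. Bhlhe41, a transcriptional repressor, fell by 0.61 among the lineage factors.

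The 3 runs differed in how strongly functions moved. Called lower genes had median log2 changes of −0.97, −0.90, and −0.76 in runs 1, 2, and 3, and 71 of the 109 had their smallest change in run 3. Called higher genes had 0.74, 0.77, and 0.78. NRF2 targets, which protect from oxidative stress, had medians of 0.04, 0.04, and 0.47, so the list was above that of all genes mainly in run 3. Hmox1, heme oxygenase 1, was at 2102, 2232, and 3286 CPM with LPS and 3623, 3339, and 7252 CPM with LPS + 3′SL. Both libraries of run 3 were the highest of their group, and the log2 fold change of 0.80 did not pass (adjusted p = 0.0893 in edgeR's test with the block). Mitosis genes had medians of 0.18, 0.32, and −0.03 with 0 called, and DNA replication genes 0.09, 0.06, and 0.02. Stromal markers had lower summed levels with LPS + 3′SL in runs 2 and 3, and neutrophil markers were highest in run 3. Their part in the results was not tested.

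Genes whose symbols are not in the text of the study were also ranked by size of change among those called with the block, separated between the groups, and at 5 CPM or more. The 15 with the largest rise ranged from 0.75 to 1.55 on the log2 scale. Btbd11, a protein with ankyrin repeats and a BTB domain (chromosome 10, 85386814 to 85660292), was at 2.15, 1.89, and 4.42 CPM with LPS and 6.55, 5.01, and 13.6 CPM with LPS + 3′SL (log2 fold change 1.55 ± 0.17 SE, adjusted p = 0.00125). Besides Lss, Acsl3, Arl4c, Dhcr7, and Mvd, described above, the group held Dmwd (0.96), a WD repeat protein, and Plekhg3 (0.94). It also held Lfng (0.93), a glycosyltransferase that modifies Notch, Ppfia4 (0.81), a liprin, and Acp6 (0.79), a phosphatase of lysophosphatidic acid. The others were Dcun1d4 (0.79), which assists neddylation, Cpox (0.76), an enzyme of heme synthesis, Ccdc134 (0.75), and Bin2. Bin2, a BAR domain protein of phagocytes (chromosome 15, 100641077 to 100669553), was at 35.9, 44.2, and 62 CPM with LPS and 64.9, 70.8, and 101 CPM with LPS + 3′SL, with the groups just apart (log2 fold change 0.75 ± 0.08 SE, adjusted p = 0.000833).

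The 15 with the largest fall ranged from −0.81 to −1.22. Tnfrsf8, the receptor CD30, was at 12.9, 12.7, and 25.7 CPM with LPS and 6.31, 5.51, and 11.8 CPM with LPS + 3′SL and thus highest in run 3 in both groups (log2 fold change −1.12 ± 0.21 SE, adjusted p = 0.0213). Gadd45a, a stress-induced growth inhibitor, fell from 6.74, 6.58, and 11.6 CPM to 2.86, 3.81, and 5.57 CPM, and its levels with LPS were below those with PBS (15.3 to 17.3 CPM). Osbpl3, an oxysterol-binding protein that acts at membrane contacts (chromosome 6, 50293330 to 50456201), was at 49.5, 70.2, and 34.4 CPM with LPS and 23.8, 33.7, and 18.3 CPM with LPS + 3′SL (log2 fold change −1.01 ± 0.13 SE, adjusted p = 0.0022). Sh3bgrl2, a small protein with a thioredoxin-like fold, was at 165, 110.4, and 127 CPM with LPS and 88, 72.3, and 66.6 CPM with LPS + 3′SL (log2 fold change −0.82 ± 0.09 SE, adjusted p = 0.00125). Il20rb (−0.93), a receptor subunit for interleukins of the IL-10 family, and Tsc22d1 (−0.90), a leucine zipper protein, fell too. The rest were Ctu1 (−0.84), which thiolates tRNA, Dtnb (−0.83), a dystrobrevin, Mfap3l (−0.82), and the transporter Mfsd7a, together with Cp, Acsl1, Bcl2a1d, Irak3, and Nfkbiz, whose protein, though not the gene symbol, is in the text of the study.

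**Figure D4:**
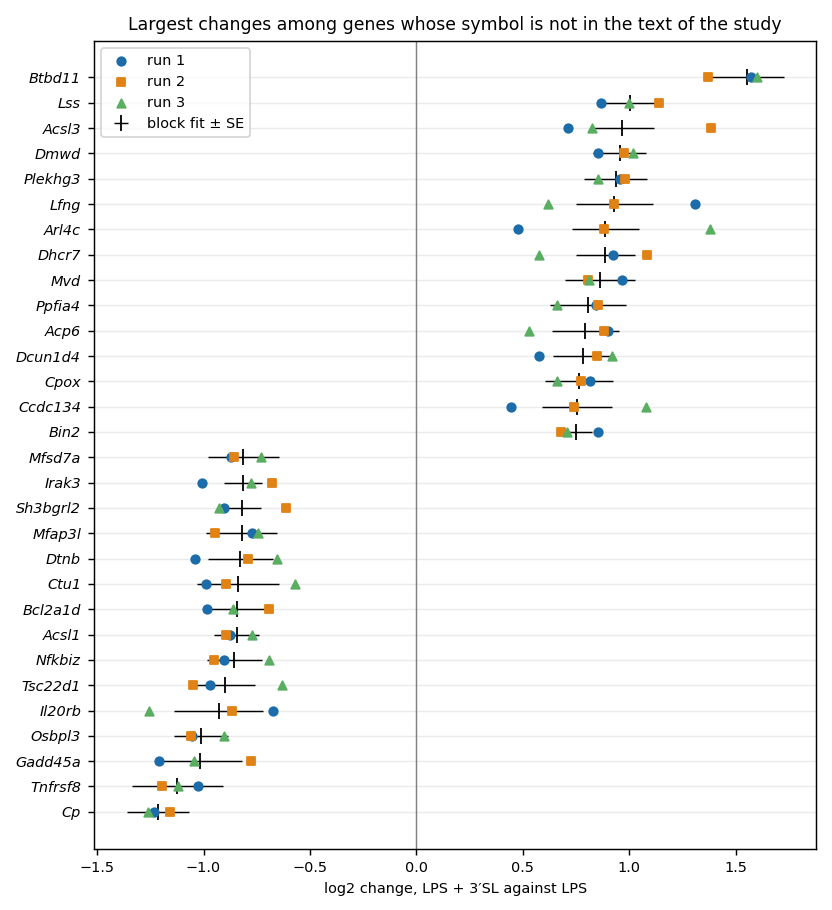
Log2 change (LPS + 3′SL over LPS) of 30 genes whose symbols are not in the text of the study, 15 with the largest rise and 15 with the largest fall, with 1 marker per library run and bars for the SE of the fit with the block. The rise runs from 0.75 in Bin2 to 1.55 in Btbd11 and the fall from −0.81 in Mfsd7a to −1.22 in Cp, with every run on the same side of 0, as the choice of genes required.

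The change made by 3′SL beside LPS was set against its change without LPS, in the PBS and 3′SL libraries. These were not compared above, but they were part of the same fit and of its estimates of error and run effects, so the counts that follow are a description. Of the 98 genes called higher with LPS + 3′SL, 77 (78.6%) were also higher in cells given 3′SL as compared with PBS, against 49.6% of all genes, and their median log2 change there was 0.28. Of the 109 genes called lower, 60 (55.1%) were higher without LPS, with a median of 0.03. The ER chaperones had a median of 0.50 without LPS as compared with 0.40 beside it, and NRF2 targets had 1.17 as compared with 0.12. Medians of NRF2 targets without LPS were 0.60, 0.56, and 1.71 within the runs, and thus highest in run 3. Cholesterol synthesis had 0.31 without LPS and 0.63 with it. Interleukins (0.38 and −0.42) and NF-κB feedback inhibitors (0.36 and −0.35) were above 0 without LPS and below 0 with it, in every run. Within the runs, however, the interleukin medians without LPS were smaller, at 0.11, 0.08, and 0.33. Some members, such as Il6, had very low levels with PBS. Type I interferon response genes had 0.39 and −0.10, but in run 2 their median without LPS was −0.07, and with LPS it was above 0 under 5 of 29 alternatives. Genes of DNA replication had −0.61 without LPS and 0.08 with it. Their medians without LPS were −0.53, −0.43, and −1.36 within the runs, and thus lowest in run 3.

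The interaction of both agents asks whether the change with 3′SL differs with LPS. In edgeR's test, 0 genes were called without the run, where the lowest adjusted p was 0.309 and 872 genes had an unadjusted p under 0.05. With the block, 222 genes (1.55%) were called, 38 with a more positive and 184 with a more negative change beside LPS, and DESeq2 without the run called 44. They included 16 of the 98 called higher and 46 of the 109 called lower genes, but the interaction contains the libraries on which those genes were chosen, so these counts are a description.

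**Figure D5:**
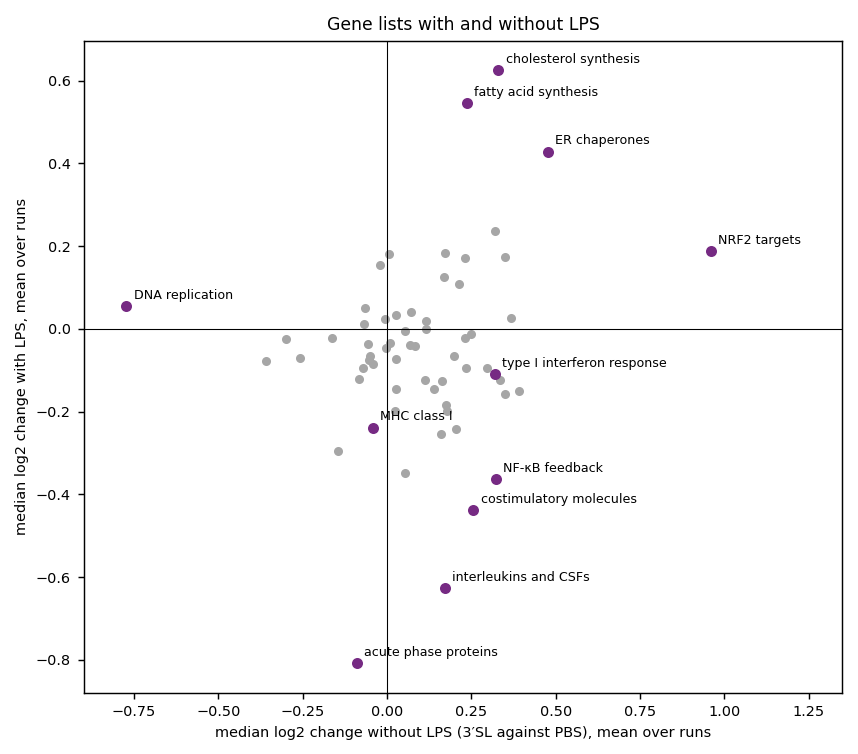
Median log2 change of each functional list with 3′SL in the presence of LPS (y axis) against that in its absence (x axis), as the mean of the medians of 3 library runs, with some lists named. ER chaperones and cholesterol synthesis lie above 0 on both axes, whereas interleukins and NF-κB feedback inhibitors lie above 0 without LPS and below 0 with it.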

How the data were processed

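RNA-Seq of BMDMs was analysed, with 3 libraries per group and 4 groups. Per the labels, reads were processed with FastQC, Trimmomatic, STAR, HTSeq, and DESeq2, with no version given. Count tables with the number of reads per gene were deposited by the authors without normalization, and the build and strand setting of the counting are not given in the sources used here. Names and positions were taken from GENCODE M21 (GRCm38) for 42462 of 43626 gene identifiers.

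Counts were fitted in R 4.3.3 with edgeR 4.0.16 (filterByExpr, TMM, quasi-likelihood test) over all 12 libraries, with Benjamini-Hochberg adjustment over the 14308 genes tested. The common biological coefficient of variation was 0.310, and 0.133 with the library run as a block. The main test of the design had no block and called 0 genes, and the fit with the block was 1 of its alternatives. The block was used for single genes because the libraries of each run, taken from the running numbers of the labels, deviated together in all 3 pairs. Changes within a run are log2 ratios of CPM with a prior count of 2 and carry no error. Replicate pairs differed by more than sampling noise (chi-square of at least 15.6 per gene). Alternatives used DESeq2 1.42.0, sva 3.50.0, other scalings and filters, and fits without single libraries.

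The comparison, the 62 functional and 10 marker lists (1355 genes, 1351 matched), and the rule for named genes were chosen with earlier results of these data known. Named were the 15 largest changes per direction among genes called with the block, with the same sign in every run, no overlap of the groups, at least 5 CPM, and a symbol absent from the study's text, and up to 4 members of each list with the smallest p. Gbp5, Gbp6, Gbp10, and Snhg1 were not analysed here. Promoter windows are from RefSeq (GRCm38.p6).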

Additional observations from a re-analysis of the deposited data

Results flagged for a closer look

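Of the 117 genes named in the report, 36 had a change with 3′SL beside LPS that differed from the change without LPS. They passed both thresholds for the interaction term of edgeR's test with the run as block, as did 1.55% of all genes tested. Most named genes were chosen by their change beside LPS, which is part of the interaction, so the count of 36 is a description. None of the 36 passed in edgeR's test without the block. Values below are the log2 interaction, which is the change beside LPS minus the change without it. It was above 0 for Dhcr7 (1.08), Ppfia4 (1.38), Sesn1 (1.39), Tfeb (0.79), and Ccnd1 (0.89), which are genes that rose beside LPS. It was below 0 for the mediators and enzymes Il1a (−2.49), Cxcl3 (−5.09), Saa3 (−2.47), Cp (−1.36), Nos2 (−2.62), and Ptges (−1.80). The fitted value of Cxcl3 rests on levels of at most 0.674 CPM with PBS. Receptors and surface molecules below 0 were Tnfrsf8 (−1.70), Il20rb (−1.45), Fas (−1.43), Tnfrsf1b (−0.96), Fpr1 (−0.96), Adora2b (−0.86), Slamf7 (−0.82), and Cd86 (−1.0). Regulators of signaling and transcription below 0 were Nfkbiz (−1.18), Irak3 (−0.94), Rel (−0.89), Klf6 (−0.92), Fosl2 (−1.23), Dusp16 (−1.49), Zc3h12a (−1.07), Tsc22d1 (−0.93), and Mir155hg (−2.32). The other genes below 0 were Osbpl3 (−0.86), Acsl1 (−0.76), Bcl2a1a (−1.87), Bcl2a1d (−1.13), Sh3bgrl2 (−1.02), St8sia4 (−1.23), Mdm2 (−0.65), and Btg2 (−0.98).

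For 17 lists, the medians had 1 sign in all 3 runs beside LPS and the opposite sign in all 3 runs without it, and this difference was not tested. In the fits beside LPS, medians of ribosomal proteins, proteasome subunits, and regulators of mRNA decay were above 0 under total count scaling. The sign also changed under 2 of 29 alternatives for metalloproteinases and for interferon receptors with IRF factors, 4 for DNA replication, and 7 for p53 targets. It changed under 1 for Toll-like receptors and for nitric oxide and arginine enzymes. The median beside LPS minus that without it was −0.80 for interleukins and colony-stimulating factors, −0.70 for costimulatory molecules, and −0.69 for NF-κB subunits and feedback inhibitors. It was −0.51 for nitric oxide and arginine enzymes, −0.45 for the TNF superfamily, and −0.41 for immediate-early factors. Regulators of mRNA decay had −0.39, inflammasome genes −0.36, iron genes −0.33, and integrins −0.29. Toll-like receptors had −0.28, metalloproteinases −0.26, and interferon receptors with IRF factors −0.24. Smaller differences were found for proteasome subunits (−0.12) and ribosomal proteins (−0.11). The difference was above 0 for DNA replication (0.83) and for p53 targets (0.12).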

How the results depend on the processing

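Without the library run in the model, the count of called genes was 0 with genes of at least 10 counts in every library, with only the 6 libraries compared, with 1 surrogate variable, and with no fold minimum. It was 1 with DESeq2's size factors (1 lower) or total counts (1 higher), 2 with all genes of at least 1 count (1 higher and 1 lower), and 113 in DESeq2 (47 higher and 66 lower). At an unadjusted p it was 402 (215 higher and 187 lower). With the run as replicate block, it was 207 (98 higher and 109 lower), 201 with DESeq2's size factors (91 and 110), 218 with total counts (137 and 81), and 284 in DESeq2 (129 and 155). Genes of at least 1 count gave 315 (143 and 172), genes of at least 10 counts 191 (99 and 92), and the 6 libraries alone 506 (219 and 287). The interaction gave 44 in DESeq2 and 567 at an unadjusted p, and with the block 222, 223 with DESeq2's size factors, 136 with total counts, 506 in DESeq2, 584 with genes of at least 1 count, and 237 with genes of at least 10 counts. Leaving out libraries or whole runs gave from 0 to 371 called genes, 0 to 161 higher, 0 to 210 lower, and 0 to 457 for the interaction. With the block, leaving out the LPS library of run 1, 2, or 3 gave 114 (58 higher and 56 lower, interaction 43), 67 (31 and 36, 24), and 149 (62 and 87, 263). Leaving out the LPS + 3′SL library gave 58 (27 and 31, 25), 70 (32 and 38, 39), and 147 (67 and 80, 133). These fits, chosen after the data had been seen, leave a run with 1 library of the comparison. Why the counts moved was not tested. Alternatives for the 117 named genes were set against edgeR's test without the run, in which 0 genes were called. Of 3373 alternative values, 2296 had the same direction and were not called, and 1076 had the same direction and were called. Direction changed for 1 value, that of Adora2b (−0.50 with all libraries, 0.10 without the LPS library and −1.17 without the LPS + 3′SL library of run 3). Pdia4 was called in 17 of 29 alternatives, Hspa5 in 9, and Sel1l in 0. Of 62 list medians, 20 kept their sign under all 29 alternatives. At this depth, genes of a few CPM, such as Csf3, rest on few reads.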

Other observations

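Some functions of macrophages showed no common direction. Alternative activation markers, such as Arg1 and Mrc1, had 7 higher and 6 lower members with a median of 0.00. Complement components and receptors had 8 and 6 with 0.06, scavenger and C-type lectin receptors 9 and 10 with −0.02, and autophagy genes 12 and 10 with 0.03. Each of these 4 lists had 0 genes called in edgeR's test with the block. Coagulation and plasminogen genes had 4 and 9 with −0.08, of which F10 fell. Inflammasome genes had 11 of 13 members lower although Nlrp1b rose.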
